A study of Mus musculus with 14 samples.

Results

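Regulatory T cells (Treg cells) sorted from tumor ascites were compared with Treg cells sorted from resting spleens on 8 of the 14 arrays of the series. By their sample titles these were the 5 allogeneic tumor-activated replicates, numbered 1 to 5, and naive replicates 4, 5 and 6. All of the cells came from mice of the 129/SvJ strain (H-2b) with the Foxp3-ires-GFP knock-in, in which the Foxp3 locus also makes a green fluorescent protein that marks Treg cells for sorting. The naive samples came from untreated spleens. The tumor samples came from ascites, the fluid that collects in the peritoneal cavity, 5 days after 1000000 P815 cells had been injected there. P815 is a mastocytoma, a tumor line of mast cell type, and it derives from DBA/2 mice (H-2d), so its MHC differs from that of the host. The labels give a sort purity over 95% and title the samples as biological replicates, without naming the animals each came from. Tumor exposure and tissue of origin (ascites against spleen) changed together, so their effects cannot be told apart. The series also holds 3 arrays of Treg cells from graft-versus-host disease (GVHD; spleens of irradiated BALB/c recipients on day 4) and naive replicates 1 to 3, which served here as further controls. For GVHD the irradiation dose was 900 cGy, and the graft combined 2000000 T cells with 2000000 cells of marrow. The labels call replicates 1 to 3 naive spleen cells of the same strain, but their protocol text is that of a study with another tumor line, RMAS, and gives no sort purity.

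Treg cells are CD4 T cells that depend on the transcription factor Foxp3 and restrain other immune cells. They take up interleukin 2 (IL-2) through the receptor chain Il2ra and carry inhibitory receptors such as Ctla4. At rest, T cells keep a quiescent, recirculating state through factors such as Klf2, Foxo1 and Bach2. On activation they divide and take up more glucose and amino acids, and transcription factors such as Myc and Atf4 drive part of that programme. A tumor-bearing peritoneal cavity also holds tumor cells, macrophages and granulocytes, whose RNA can enter a sorted sample.

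Values below are MAS5 signals after every array was scaled to the same trimmed mean of 500, and changes are differences of log2(signal + 32) with limma's Benjamini-Hochberg adjusted p. The words rose and fell are kept for genes with that p under 0.05. Foxp3 itself could not check the sort, since its only probe set read 33, 28 and 26 in the naive arrays and 16, 50, 27, 35 and 25 in the tumor arrays, below the filter of 100. Other T cell genes were present in all groups but unequal within the tumor group: Cd4 read 2451, 2050 and 1660 in naive replicates 4, 5 and 6 and 1250, 1299, 22, 708 and 688 in tumor replicates 1 to 5. The order of the arrays is the same in every such sentence below.

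Tumor replicate 3 and naive replicate 6 stood apart in markers of other cells. Tumor replicate 3 had the lowest summed signal of 20 T cell genes, 14853 against 34907 to 77015 in the other tumor arrays and 110126 to 143217 in the naive ones. It also had the highest summed signal of 25 macrophage genes (143054, against 51357 to 78065 in the other tumor arrays and 11893 to 19112 in the naive arrays). Naive replicate 6 held P815 genes. Its summed signal for Trap1a and Rhox5, which P815 expresses, was 3255, against 28 and 24 in naive replicates 4 and 5 and 17548 to 61215 in the tumor arrays. Both arrays were therefore left out together in a second fit, called the reduced fit below, with 4 tumor and 2 naive arrays. In bulk RNA such as this, fewer cells of a type and less RNA per cell cannot be told apart.

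**Figure D1:**
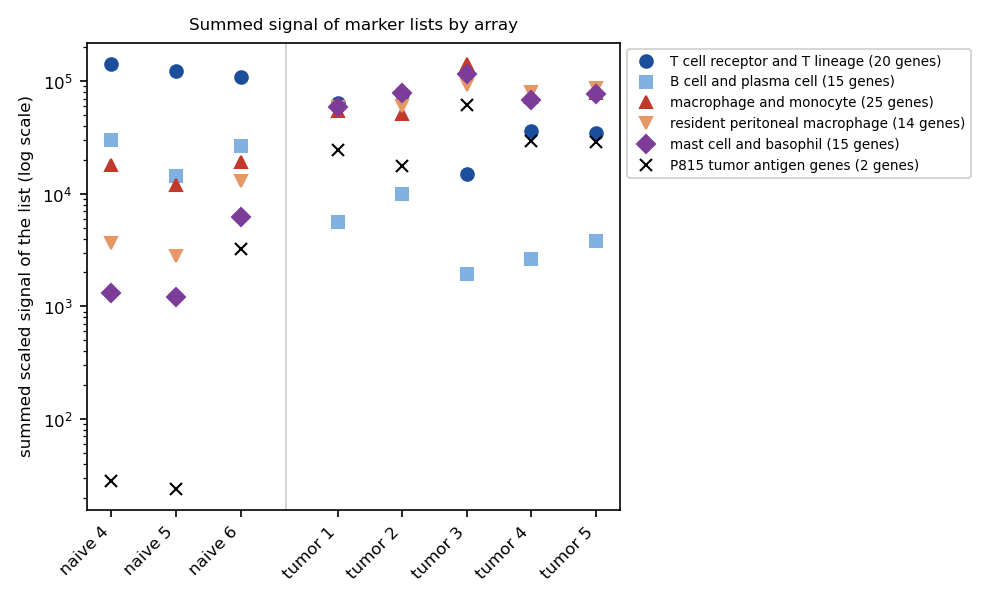
Summed scaled signal (log axis) of 6 marker lists in each of the 3 naive and 5 tumor arrays, 1 point per list and array. T cell genes run from 110126 to 143217 in the naive arrays and fall to 14853 in tumor replicate 3, while the P815 genes read 24 to 28 in naive replicates 4 and 5, 3255 in naive replicate 6 and 17548 or more in the tumor arrays.

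RNA quality was uneven as well. For Gapdh the ratio of 3' to 5' signal, which grows as RNA is degraded, was 19.1, 9.0 and 7.45 in the naive arrays, 19.9 in tumor replicate 2 and 2.19 to 2.64 in the other tumor arrays. For Actb it was 3.04, 1.99 and 2.11 in the naive arrays, 6.37 in tumor replicate 2 and 1.78 to 2.44 in the other tumor arrays. Without tumor replicate 2 the rises described below numbered 2177 and the falls 2209. That fit does not test the effect of RNA quality. It sets naive arrays with Gapdh ratios of 7.45 to 19.1 against tumor arrays of 2.19 to 2.64. By this measure RNA quality and group cannot be told apart there, while the Actb ratios overlapped.

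The comparison called 1974 rises, 16.2% of the 12218 genes tested, and 1895 falls, 15.5%. Counts in the lists below are to be read beside these shares. Tumor and naive arrays were fully separate in 1701 of the rises and 1642 of the falls. Over all genes tested they did not overlap in 34.4%, with tumor higher in 16.5% and lower in 17.9%. In the reduced fit 2022 genes rose (16.5%) and 1875 fell (15.3%). Of the original calls, 1747 rises and 1612 falls were called again, and 0 of them had the opposite sign there. Without naive replicate 5 alone the falls numbered 1018. Tumor replicate 3 was the lowest of the tumor arrays in 77.9% of the falls and in 45.5% of all genes. Among the rises it was the highest in 49.8%, against 26.2% of all genes, and the lowest in 23.2%.

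**Figure D2:**
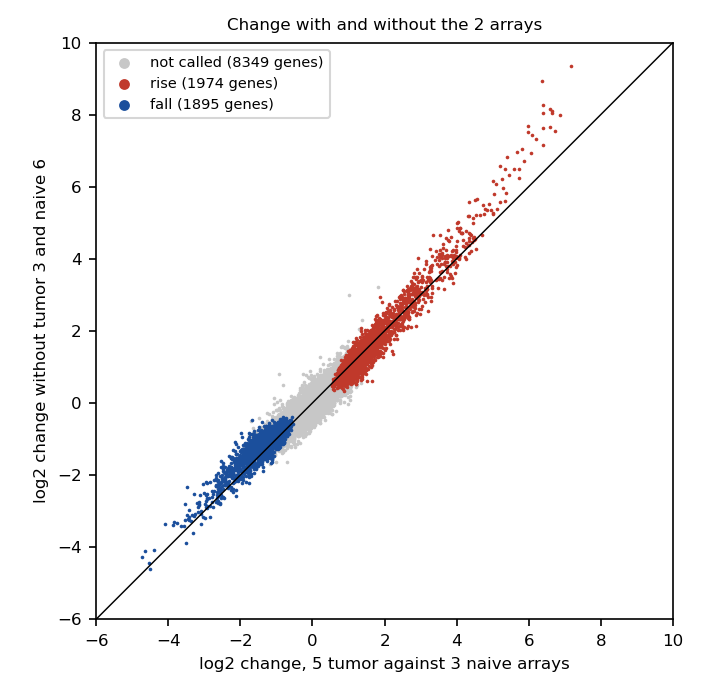
Change of each of the 12218 genes, tumor minus naive replicates 4 to 6 on the log2(signal + 32) scale, from all 8 arrays (x) and without tumor replicate 3 and naive replicate 6 (y); red and blue points are the 1974 rises and 1895 falls and the line marks equal values. Falls lie mostly above the line, smaller without the 2 arrays, and the largest rises lie above it too, larger without them.

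T cell genes as a whole read lower in the tumor samples. Of 20 tested genes of the T cell receptor and T lineage, 15 fell and the other 5 were not called (median log2 change -1.92, against -0.06 over all genes). In the reduced fit 19 of the 20 fell, with a median of -1.47. Cd5, a surface receptor that dampens T cell receptor signals, read 21525, 13731 and 11683 in the naive arrays and 5880, 8303, 179, 2475 and 2798 in the tumor arrays. It fell 6.41-fold (log2 -2.68, SE 0.79, adjusted p = 0.017), or 3.98-fold in the reduced fit. The groups did not overlap, tumor replicates 1 and 2 were the nearest to the controls, and replicate 3 was far the lowest. Cd3g, a chain of the CD3 complex, read 6683, 6805 and 6563 and 2399, 2308, 683, 1405 and 1031 and fell 4.66-fold (adjusted p = 2.7e-04). Cd4 (log2 -1.91, adjusted p = 0.056) and Cd3e (log2 -1.67, adjusted p = 0.062) were not called with all arrays, and both fell in the reduced fit (log2 -1.22 and -1.15, adjusted p = 0.0031 and 0.01). The falls described below are to be read beside these values. Of the 1895 falls 312 (16.5%) were larger than the T cell list's median and the rest were not. In the reduced fit 491 falls were larger than that list's median there. The part of T cell content in any single fall was not tested. The 15 falls of the list became 6 without naive replicate 4 or 5. Cd3e was called without tumor replicate 1, 2 or 3 (adjusted p = 0.015 to 0.043). Cd4 was called without tumor replicate 1, 2 or 3 (adjusted p = 0.0027 to 0.032). Cd5 was not called without naive replicate 4 or 5 (adjusted p = 0.051 to 0.071). Cd5 changed by -1.81 without tumor replicate 3.

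Genes that define Treg cells went both ways around that background. Of 25 tested genes of Treg identity and suppression, 5 rose and 7 fell (median -0.50; 4 and 6, median -0.09, in the reduced fit). The shares over all genes were 16.2% for rises and 15.5% for falls, so the number of rises in the list is near the first of these. Tumor replicate 3 was the lowest tumor array in 23 of the 25, against 45.5% of all genes. The genes that rose were Socs2, Ecm1, Fgl2, Tnfrsf9 and Capg. Socs2, a feedback inhibitor of cytokine signals that STAT5 induces, read 977, 686 and 722 in the naive and 6820, 7754, 2122, 3917 and 6205 in the tumor arrays. Every tumor array was above every control, and the rise was 6.00-fold (log2 2.58, SE 0.36, adjusted p = 6.8e-05; 7.08-fold in the reduced fit). Tnfrsf9, the co-stimulatory receptor 4-1BB that activated Treg cells carry, read 2233, 3479 and 4741 and 7555, 6333, 7355, 11916 and 5887. It rose 2.26-fold (adjusted p = 0.0038), again without overlap. Ecm1, a secreted matrix protein, rose 2.75-fold, but its change against naive replicates 1 to 3 was 0.29 (adjusted p = 0.5). Fgl2, a secreted suppressive molecule, rose 2.35-fold. Capg, an actin-capping protein, rose 1.71-fold and was not called in the reduced fit (log2 0.52, adjusted p = 0.052). The 5 rises of the list became 3 without naive replicate 5. Capg was not called without naive replicate 5 or 6 (adjusted p = 0.058 to 0.089). Fgl2 was not called without naive replicate 5 (adjusted p = 0.06).

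The falls in that list were Gpr83, Itgae, Nrp1, Ebi3, Izumo1r, Penk and Ikzf4, the last at an adjusted p that rounds to the threshold. Gpr83, a G protein-coupled receptor enriched in Treg cells, read 5192, 3652 and 2867 in the naive arrays and 912, 1360, 46, 312 and 323 in the tumor arrays. It fell 9.18-fold (log2 -3.20, SE 0.63, adjusted p = 0.0013; 6.93-fold in the reduced fit), more than the T cell list's median in both fits. Nrp1, a co-receptor found on thymus-derived Treg cells, read 3101, 2574 and 2849 and 872, 1042, 105, 534 and 645, a 5.20-fold fall (adjusted p = 0.0016; 3.66-fold in the reduced fit). Izumo1r, the folate receptor FR4 of Treg cells, fell 4.79-fold (adjusted p = 2.5e-04), and Penk, which encodes the opioid precursor proenkephalin, fell 4.77-fold. Itgae, the CD103 integrin chain, read 11820, 5657 and 4636 and 2764, 3080, 165, 1242 and 1672 and fell 5.23-fold (adjusted p = 0.011). For Gpr83, Nrp1, Izumo1r and Itgae the highest tumor array was below the lowest control. Itgae was not called without naive replicate 4 (adjusted p = 0.066). Itgae changed by -1.71 without tumor replicate 3. Ebi3 was not called without naive replicate 4 (adjusted p = 0.055). Gpr83 changed by -2.59 without tumor replicate 3. Ikzf4 was not called without tumor replicate 3 or 5 or naive replicate 5 or 6 (adjusted p = 0.06 to 0.23).

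The best-known Treg molecules were not called with all arrays. Il2ra read 3943, 4676 and 3597 in the naive arrays and 10916, 9827, 460, 5568 and 4145 in the tumor arrays (log2 0.03, adjusted p = 0.98; 0.71, adjusted p = 0.11, in the reduced fit). Tumor replicates 1, 2 and 4 were above all of the controls, replicate 5 lay within their range and replicate 3 was far below. Ctla4 read 12903, 15232 and 22505 and 16600, 15518, 3634, 13273 and 8902 (log2 -0.68, adjusted p = 0.19), with the groups overlapping. Icos, a co-stimulatory receptor, read 21414, 18193 and 14567 and 15608, 24072, 1890, 10078 and 8994 (log2 -0.96, adjusted p = 0.19). Ikzf2, the transcription factor Helios, read 21725, 19296 and 15995 and 13904, 19403, 896, 8513 and 8646 (log2 -1.40, adjusted p = 0.12; -0.78, adjusted p = 0.053, in the reduced fit). In each of these genes tumor replicate 3 was the lowest array, and in Ctla4, Icos and Ikzf2 replicates 1 and 2 were the highest of the tumor group. Tnfrsf18, the receptor GITR (log2 -0.00), Entpd1, the ectonucleotidase CD39 (0.42), Nt5e, the ectonucleotidase CD73 (-0.42), and Il10, a suppressive cytokine (-0.18), were not called either, with adjusted p from 0.19 to 1. A p above the threshold does not show that these genes stayed level. Il2ra was called without tumor replicate 3 (log2 0.80, adjusted p = 0.036). Ikzf2 was called without tumor replicate 2 (log2 -1.76, adjusted p = 0.04). Entpd1 was called without tumor replicate 3 (log2 0.52, adjusted p = 0.048). Icos was called without tumor replicate 2 (log2 -1.30, adjusted p = 0.049).

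**Figure D3:**
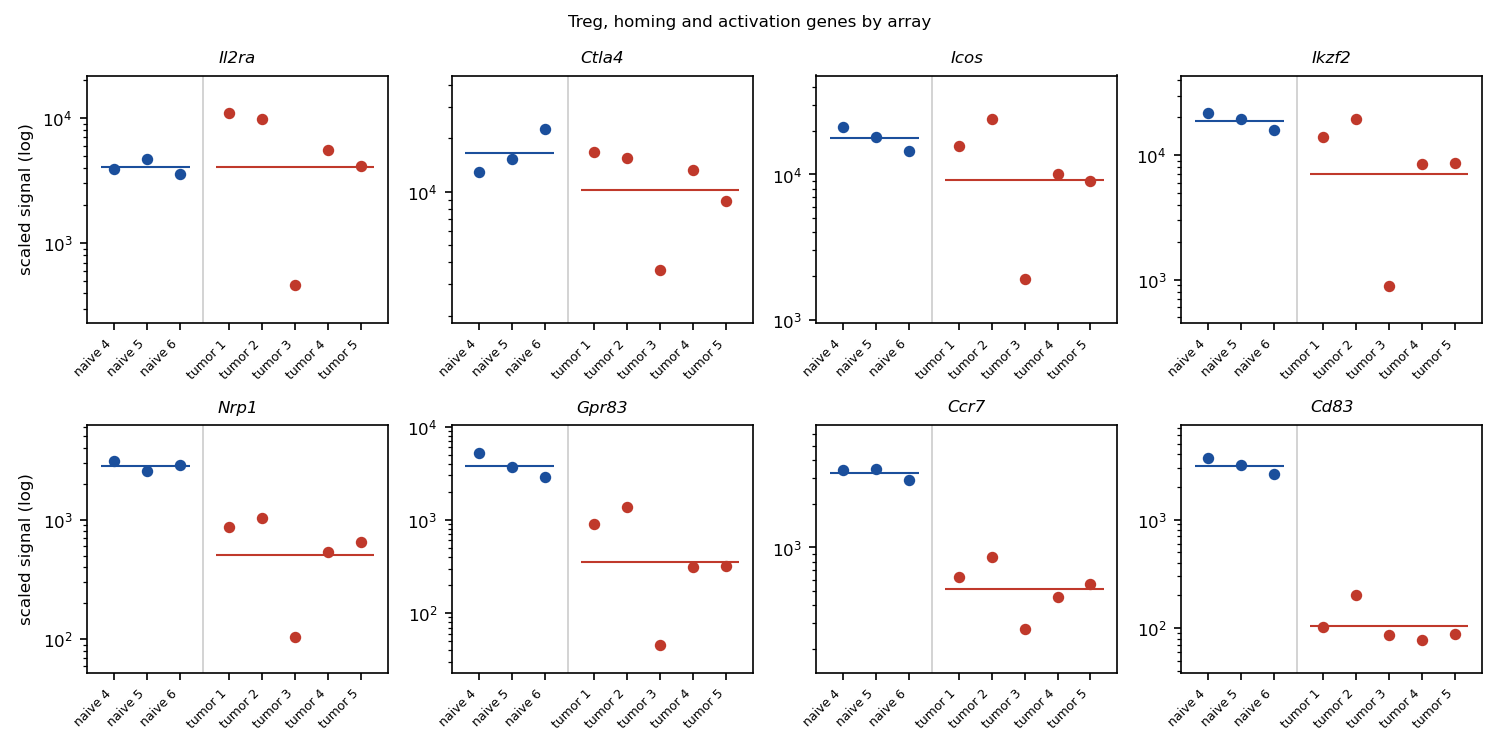
Scaled signal (log axis) of 8 genes in each naive (blue) and tumor (red) array; points are single arrays and horizontal lines are geometric means of the groups. Il2ra, Ctla4, Icos and Ikzf2 overlap between groups with tumor replicate 3 lowest, while Nrp1, Gpr83, Ccr7 and Cd83 lie lower in every tumor array than in every control.

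Genes tied to effector and tissue Treg cells had 4 rises and 6 falls among 21 (median -0.91), and 5 and 6 (median -0.40) in the reduced fit. With 16.2% of all genes rising and 15.5% falling, the number of rises is near the share over all genes. Nfil3, a leucine zipper factor that STAT signals induce, read 129, 135 and 298 in the naive and 1273, 1577, 790, 1264 and 1672 in the tumor arrays and rose 6.31-fold (adjusted p = 2.0e-05; 8.95-fold in the reduced fit). Bhlhe40, a repressor induced in activated T cells, rose 7.02-fold, from 492, 357 and 1970 to 5409, 3134, 4296, 6799 and 7481. Both groups were separate in these genes, and naive replicate 6 was the highest control in each. Pparg, a nuclear receptor of fat-tissue Treg cells and also of macrophages, read 33, 25 and 7.9 and 595, 735, 1003, 608 and 717, with the highest value in tumor replicate 3. Myb, a factor of proliferating lymphocytes and of progenitor cells, rose 3.21-fold. The falls included Gata3, the T helper 2 regulator, which read 1644, 1490 and 1398 and 670, 940, 4.5, 344 and 323 (log2 -2.27, adjusted p = 0.022; -1.54 in the reduced fit). Klrg1, a receptor of terminally differentiated Treg cells, read 6814, 4758 and 4351 and 3018, 3553, 826, 1574 and 1126 and fell 2.96-fold (adjusted p = 0.006). Rora, a nuclear receptor, Rel, an NF-kB subunit, Ccr8, a chemokine receptor, and Irf4, a factor of effector Treg cells, fell by 0.92 to 1.62 on the log2 scale. Irf4 read 1100, 1376 and 1429 and 838, 647, 334, 910 and 796, and Ccr8 was dim in all arrays (95, 157 and 144 and 87, 20, 22, 26 and 49). Prdm1, which encodes Blimp-1 (log2 -0.62), and Tbx21, which encodes T-bet (-0.23), were not called. Against naive replicates 1 to 3 Prdm1 changed by 1.43 (adjusted p = 0.047). The 6 falls of the list became 3 without naive replicate 5 or 6. Gata3 was not called without naive replicate 4, 5 or 6 (adjusted p = 0.054 to 0.068). Gata3 changed by -1.49 without tumor replicate 3. Bhlhe40 changed by 3.53 without naive replicate 6. Irf4 was not called without naive replicate 5 or 6 (adjusted p = 0.086 to 0.09). Rora was not called without naive replicate 4, 5 or 6 (adjusted p = 0.057 to 0.092).

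Genes of quiescence and of homing to lymphoid organs were lower in the tumor samples almost throughout. Of 21 tested, 19 fell and Igfbp4 rose (median -1.82; 20 falls and 1 rise, median -1.52, in the reduced fit). In 17 of the 21 genes every tumor array was below every control. This median is close to that of the T cell genes given above. Evl, an actin regulator, read 3954, 4521 and 5568 in the naive arrays and 428, 486, 253, 272 and 309 in the tumor arrays, a 12.6-fold fall (log2 -3.65, SE 0.25, adjusted p = 2.4e-07; 10.7-fold in the reduced fit). Id3, an inhibitor of E proteins, read 2403, 1116 and 730 and 67, 99, 79, 53 and 112 and fell 11.5-fold (adjusted p = 6.4e-06; 14.9-fold in the reduced fit). In both genes every tumor array was far below every control. The Id3 tumor signals, 53 to 112, lay near background, so their order is not read and the size of its fall is imprecise. Bach2, a repressor that keeps T cells from terminal differentiation, read 2155, 3683 and 2616 and 460, 422, 29, 183 and 345 (fall of 10.9-fold, adjusted p = 1.3e-04; 7.77-fold in the reduced fit). Ccr7, the homing receptor for lymph nodes, read 3404, 3484 and 2912 and 626, 863, 275, 456 and 563 and fell 5.93-fold (adjusted p = 1.5e-05; 5.40-fold in the reduced fit). Il6ra, a receptor for interleukin 6, fell 7.69-fold by its brightest probe set, while a dim one changed by 0.20. Klf2, which maintains Ccr7-type trafficking receptors, fell 3.53-fold (adjusted p = 0.014; 2.24-fold in the reduced fit). The gene that rose, Igfbp4, a binding protein of insulin-like growth factors, read 1559, 5282 and 7771 and 19256, 26994, 22755, 21365 and 18865, with no overlap.

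Early response genes of antigen receptor signalling were mostly lower. Of 16 tested, 10 fell and 2 rose (median -1.14; 9 and 3, median -0.75, in the reduced fit). Egr2, a zinc finger factor that T cell receptor signals induce, read 2565, 3644 and 3267 in the naive and 528, 143, 235, 321 and 543 in the tumor arrays and fell (log2 -3.17, SE 0.36, adjusted p = 1.3e-05). Dusp2, a phosphatase that turns off MAP kinases, read 2683, 2167 and 2125 and 424, 595, 154, 227 and 310 and fell 6.85-fold (adjusted p = 1.6e-05). Egr3 fell 8.87-fold by its brightest probe set, but by another, which averaged under 100 in both groups, its change was 0.82. Nr4a3 and Nr4a1, orphan nuclear receptors that report recent receptor signals, fell 4.57-fold and 4.55-fold, and Egr1 fell 4.20-fold. The rises were Ier3 (33, 36 and 239 against 2672, 1283, 4773, 3097 and 3562) and Atf3 (11, 21 and 160 against 290, 290, 724, 370 and 410), both stress-induced, and each was highest in tumor replicate 3. Naive replicate 6 differed from its fellow controls in several of these genes, for Jun at 149, 291 and 5392 and for Fos at 3972, 2223 and 18761; both were chosen after their values were seen. Jun changed by -0.92 with all arrays (adjusted p = 0.37) and by 0.80 in the reduced fit (adjusted p = 0.043), so its direction rests on the left-out arrays.

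Checkpoint and co-stimulatory genes moved one by one. Of 18 tested, 4 rose and 6 fell (median -0.37; 4 and 6, median -0.28, in the reduced fit). Among all genes 16.2% rose and 15.5% fell, so the number of rises in this list is not far from the share over all genes. Tnfrsf9 is given above. Havcr2, the inhibitory receptor TIM-3, read 99, 87 and 114 in the naive and 271, 304, 147, 216 and 179 in the tumor arrays, a 1.89-fold rise (adjusted p = 0.022; 2.17-fold in the reduced fit). Pdcd1, the receptor PD-1, rose 1.83-fold (adjusted p = 0.015), with tumor replicate 3 just below the highest control (2268, 1312 and 1123 and 2484, 2885, 2227, 2732 and 3714). Cd274, its ligand PD-L1, read 861, 823 and 938 and 1753, 1982, 1293, 1432 and 1381 and rose 1.75-fold (adjusted p = 0.028). The largest fall was that of Cd83, a surface marker of activated lymphocytes and dendritic cells. It read 3706, 3175 and 2605 and 102, 201, 86, 78 and 89, a 23.0-fold fall (log2 -4.52, SE 0.30, adjusted p = 2.4e-07), and tumor replicate 2 was set apart above the other tumor arrays. Btla, an inhibitory receptor of the CD28 family, read 4403, 5744 and 5419 and 1099, 805, 605, 791 and 837 and fell 6.14-fold (adjusted p = 1.3e-06), about evenly in all tumor arrays. Tnfsf11, the cytokine RANKL, fell 8.72-fold, Cd200, an inhibitory ligand, 5.39-fold and Cd86, a co-stimulatory ligand, 2.65-fold. The 4 rises of the list became 2 without naive replicate 4 or 6 and 1 without naive replicate 5. Havcr2 was not called without naive replicate 4 or 5 (adjusted p = 0.059 to 0.091). Cd274 was not called without tumor replicate 1 or naive replicate 4, 5 or 6 (adjusted p = 0.053 to 0.1). Pdcd1 was not called without naive replicate 5 or 6 (adjusted p = 0.078 to 0.094).

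Of 21 tested chemokine receptors and adhesion genes 9 fell, 1 rose and 11 were not called (median -0.59; also 9 and 1, median -0.40, in the reduced fit). Ccr6, a receptor for Ccl20 on memory and helper 17 cells, read 5783, 5510 and 3744 in the naive and 1815, 1503, 137, 1034 and 921 in the tumor arrays and fell 5.72-fold (adjusted p = 0.0036). Cxcr5, which leads cells to B cell follicles, read 1064, 658 and 654 and 248, 127, 45, 122 and 120 and fell 5.30-fold (adjusted p = 6.8e-05). The integrin chains Itgal and Itga4 fell 3.99-fold and 3.22-fold, near the T cell list's median. Ccr2, a receptor that recruits cells to inflamed tissue, read 5126, 2134 and 1796 and 7041, 5140, 1452, 3710 and 3392 and was not called (log2 0.44, adjusted p = 0.47). The 1 rise was Ccr1, a receptor of myeloid cells, which read 35, 24 and 140 and 804, 676, 4084, 1447 and 1154, highest in tumor replicate 3. Ccr6 changed by -1.93 without tumor replicate 3.

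Cytotoxic genes rose in part, 5 up and 1 down among 14 (median 0.65; 6 and 1, median 0.74, in the reduced fit). Gzmb, granzyme B, read 3779, 1370 and 1478 in the naive and 20065, 40658, 8577, 15557 and 11044 in the tumor arrays (log2 3.04, SE 0.42, adjusted p = 7.3e-05). Prf1, perforin, read 324, 618 and 577 and 4333, 3814, 1771, 3502 and 6176 (log2 2.82, adjusted p = 3.8e-05). Both lay above the controls in every tumor array, and in both tumor replicate 3 was the lowest of its group. Gzma, granzyme A, overlapped between groups and was not called (log2 1.37, adjusted p = 0.051). Fasl, the ligand of the death receptor Fas, fell 2.40-fold, from 220, 257 and 156 to 87, 178, 49, 35 and 40. Gzma was called without tumor replicate 4 or 5 (adjusted p = 0.026 to 0.044). Fasl was not called without naive replicate 4 or 5 (adjusted p = 0.053 to 0.08).

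Cytokines and chemokines had 8 rises and 2 falls among 22 (median 0.47), and 8 and 2 (median 0.53) in the reduced fit. Tumor replicate 3 was the highest tumor array in 11 of the 22, against 26.2% of all genes. The rises were led by Ccl9, a myeloid chemokine, Il6 and Cxcl2, a neutrophil chemokine. Il6, an inflammatory cytokine, read 29, 3.1 and 59 in the naive arrays and 411, 247, 1644, 415 and 636 in the tumor arrays (log2 3.31, adjusted p = 3.8e-04; 3.24 in the reduced fit). Il4, a type 2 cytokine, read 68, 44 and 53 and 213, 437, 1362, 225 and 494 (log2 2.43, adjusted p = 6.9e-04), and Il13, another, read 9.1, 6.0 and 16 and 112, 24, 403, 229 and 153 (log2 2.07, adjusted p = 0.0043). All 3 were highest in tumor replicate 3, where T cell signal was lowest and P815 and macrophage signal highest. Which cells these transcripts came from was not tested. Ltb, the membrane lymphotoxin of resting lymphocytes, fell 4.05-fold, from 16589, 13484 and 9812 to 7822, 12031, 685, 1750 and 2819, and the chemokine Ccl5 fell 2.58-fold (adjusted p = 0.047). Ccl5 was not called without tumor replicate 1, 4 or 5 or naive replicate 4 or 5 (adjusted p = 0.057 to 0.28). Ltb was not called without tumor replicate 4 or naive replicate 4 or 5 (adjusted p = 0.052 to 0.085).

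**Figure D4:**
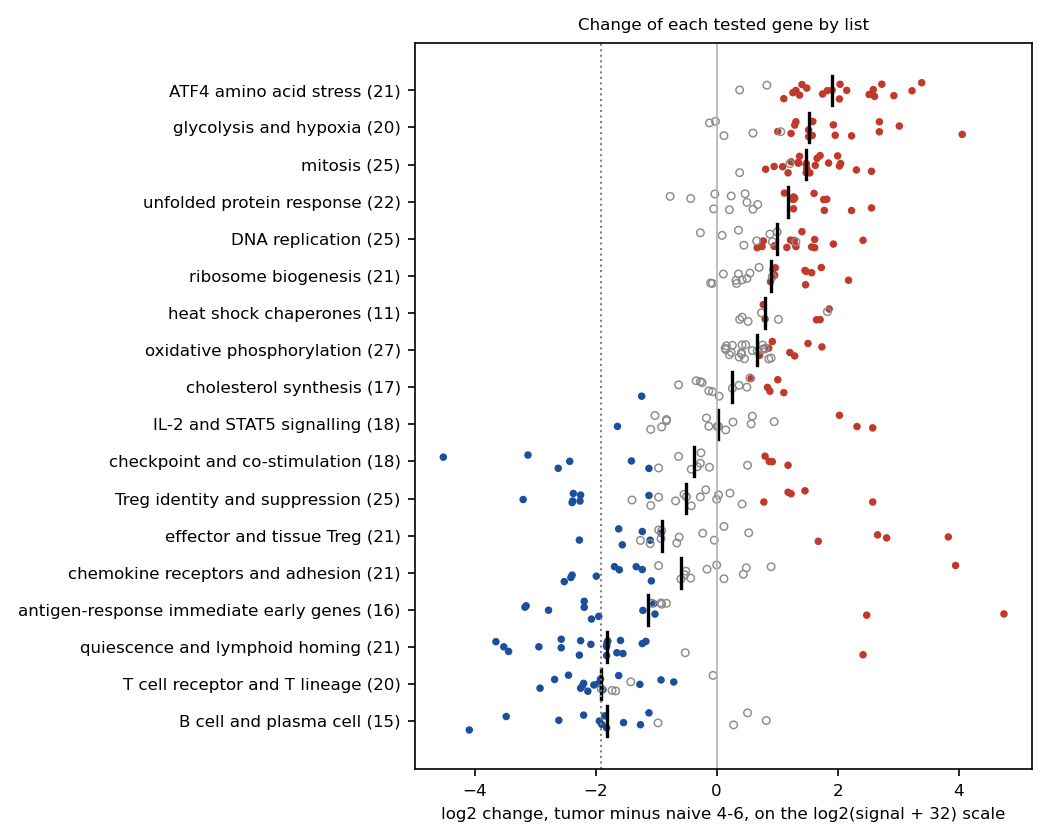
Change of every tested gene of the lists named at the left, tumor minus naive replicates 4 to 6 on the log2(signal + 32) scale, 1 point per gene; filled red points rose, filled blue points fell, open points were not called, black bars are list medians and the dotted line is the T cell list's median of -1.92. The list of Atf4 targets has its median at 1.91 and mitosis at 1.48, while quiescence genes, at -1.82, lie near the dotted line.

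Genes that the stress factor Atf4 controls were higher in the tumor samples in nearly all members. Atf4 is translated when amino acids run short or the endoplasmic reticulum is stressed, and it induces amino acid transporters, biosynthetic enzymes and tRNA synthetases. Many of its target promoters carry a composite C/EBP-ATF element. Its core, TGATGNAA, was searched on both strands of the 250 bases before the start of each gene in RefSeq's promoters (GRCm38.p6), and 3.45% of 32851 such windows held it. Of the list's 22 genes 19 had a window here and 4 of these held the core, 3 of them (Asns, Slc7a11 and Chac1) genes that rose. They are shown because they carry the core among the risen genes, 5' to 3' on the gene's strand, with the core in capitals (on the opposite strand it reads as its reverse complement). Asns lies on the minus strand at chr6:7693210-7693459, Slc7a11 on the minus strand at chr3:50443614-50443863 and Chac1 on the plus strand at chr2:119350992-119351241.
Asns: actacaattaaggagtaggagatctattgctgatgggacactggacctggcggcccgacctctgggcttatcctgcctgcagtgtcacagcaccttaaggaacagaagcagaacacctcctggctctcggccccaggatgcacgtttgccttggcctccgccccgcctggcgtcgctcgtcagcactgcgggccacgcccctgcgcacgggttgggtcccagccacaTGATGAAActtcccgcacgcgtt
Slc7a11: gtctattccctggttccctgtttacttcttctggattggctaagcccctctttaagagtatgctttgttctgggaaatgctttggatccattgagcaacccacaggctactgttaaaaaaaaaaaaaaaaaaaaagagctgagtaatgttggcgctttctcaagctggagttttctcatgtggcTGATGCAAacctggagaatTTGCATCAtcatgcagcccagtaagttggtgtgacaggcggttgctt
Chac1: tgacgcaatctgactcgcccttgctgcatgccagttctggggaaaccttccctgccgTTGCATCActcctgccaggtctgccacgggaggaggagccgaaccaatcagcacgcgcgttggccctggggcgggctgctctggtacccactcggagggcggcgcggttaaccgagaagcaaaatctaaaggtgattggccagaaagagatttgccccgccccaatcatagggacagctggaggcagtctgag
The Asns core lay 16 to 23 bases before the start, Slc7a11 held a pair of cores in opposite orientation, and the Chac1 core lay 186 to 193 bases before the start. A match of letters is a description of the sequence and does not show that a factor was bound.

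Of 21 tested genes of this list 19 rose and the other 2, Sesn2 and Ddit3, were not called (median 1.91; 20 rises, median 2.08, in the reduced fit). The summed signal of the list was 23661 to 30354 in the naive arrays and 102411 to 121699 in the tumor arrays. The mean log2 signal over its genes was 11.03 in tumor replicate 3 and 11.30 to 11.61 in the other tumor arrays. Replicate 3 was the lowest tumor array in 12 of the 21 genes and the highest in 6. Over all genes tested it was the lowest in 45.5% and the highest in 26.2%, so the list's counts are near those shares. Slc7a5, the LAT1 transporter of large neutral amino acids, read 598, 427 and 867 in the naive and 8499, 9045, 2614, 7507 and 8602 in the tumor arrays. It rose 10.5-fold (log2 3.39, SE 0.39, adjusted p = 1.6e-05; 15.7-fold in the reduced fit), and tumor replicate 3 was the lowest of its group though above every control. Slc3a2, its partner chain, rose 3.77-fold and was also lowest of the tumor arrays in replicate 3 (2325, 1773 and 2295 and 7571, 10341, 6099, 8049 and 8856). Trib3, a pseudokinase that feeds back on Atf4, read 58, 143 and 147 and 2005, 1241, 701, 1471 and 1419 and rose 9.40-fold (adjusted p = 6.9e-06). Asns, asparagine synthetase, read 879, 638 and 1021 and 5860, 5964, 10478, 5956 and 5482 and rose 7.62-fold (adjusted p = 1.3e-06; 7.48-fold in the reduced fit), with tumor replicate 3 the highest. Psat1, an enzyme of serine synthesis, read 2136, 1164 and 1822 and 9858, 11936, 11224, 8565 and 10032 and rose 6.10-fold (adjusted p = 1.4e-06). The serine and folate enzymes Phgdh, Shmt2 and Mthfd2 rose 3.56-fold, 2.82-fold and 4.44-fold. Chac1, which degrades glutathione, rose from 69, 56 and 40 to 487, 564, 438, 443 and 510, and Slc7a11, the cystine transporter, from 92, 3.6 and 61 to 293, 254, 595, 445 and 474. All controls of both were under 100, near background, so no fold is given. Atf4 itself read 2026, 2026 and 3916 and 5954, 6178, 8633, 6585 and 5962 and rose 2.59-fold (adjusted p = 5.4e-04), but against naive replicates 1 to 3 it changed by -0.33 (adjusted p = 0.27). Cebpb, a partner of Atf4 at the composite element, rose 6.65-fold. Ddit3, which encodes the stress factor CHOP, read 582, 333 and 447 and 569, 875, 854, 352 and 459 and was not called (log2 0.38, adjusted p = 0.36); against naive replicates 1 to 3 it fell (log2 -1.27, adjusted p = 0.003). Where cells of several types share these genes, which of them carried the rise was not tested. Sesn2 was called without tumor replicate 3 (log2 1.16, adjusted p = 0.0028).

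**Figure D5:**
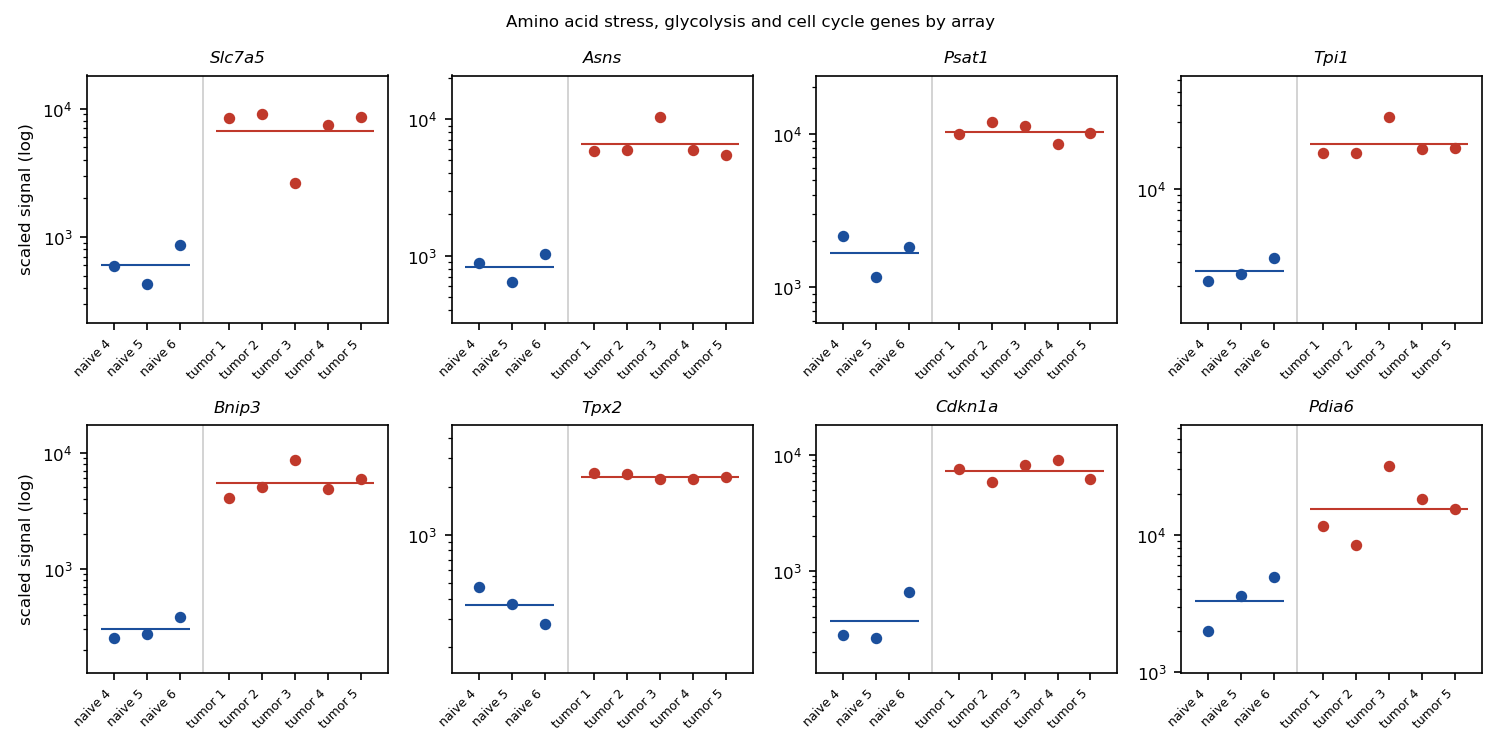
Scaled signal (log axis) of 8 genes in each naive (blue) and tumor (red) array; points are single arrays and horizontal lines are geometric means of the groups. All 8 lie higher in every tumor array than in every control; tumor replicate 3 is the lowest of its group for Slc7a5 and the highest for Asns, Tpi1, Bnip3 and Pdia6.

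Genes of the unfolded protein response, which the endoplasmic reticulum raises when misfolded protein builds up, rose in part. Their promoters are known for the ER stress response element, a CCAAT box and a CCACG box held at a fixed spacing. The motif, CCAAT and then CCACG after any 9 bases, searched on both strands of the same windows, was in 0.113% of the 32851 promoters and in 8 of the 20 list genes that had a window. Pdia6 and Creld2 are shown as risen genes that hold it, with the motif in capitals, both from the plus strand (chr12:17266339-17266588 and chr15:88819396-88819645, GRCm38.p6).
Pdia6: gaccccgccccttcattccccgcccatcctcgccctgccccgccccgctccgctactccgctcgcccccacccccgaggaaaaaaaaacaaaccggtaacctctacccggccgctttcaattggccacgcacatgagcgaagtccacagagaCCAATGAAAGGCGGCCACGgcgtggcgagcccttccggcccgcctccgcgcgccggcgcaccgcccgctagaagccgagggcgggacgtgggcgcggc
Creld2: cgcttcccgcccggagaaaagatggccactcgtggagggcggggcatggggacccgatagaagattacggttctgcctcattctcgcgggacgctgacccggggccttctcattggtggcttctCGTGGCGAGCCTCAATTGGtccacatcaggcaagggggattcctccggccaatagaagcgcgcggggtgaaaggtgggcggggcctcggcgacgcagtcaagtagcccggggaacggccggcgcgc
The match lay 80 to 98 bases before the start in Pdia6 and 108 to 126 bases before it, on the opposite strand, in Creld2.

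Of 22 tested genes of that response 12 rose and the other 10 were not called (median 1.18; also 12 rises, median 1.10, in the reduced fit). Pdia6, a disulfide isomerase of the endoplasmic reticulum, read 1983, 3571 and 4946 in the naive and 11648, 8485, 31596, 18397 and 15308 in the tumor arrays. It rose 4.68-fold (log2 2.23, SE 0.36, adjusted p = 2.7e-04), with the highest value in tumor replicate 3. Creld2, an isomerase-like secretory protein, read 1711, 1285 and 1649 and 3881, 3709, 8361, 5812 and 6075 and rose 3.41-fold (adjusted p = 1.1e-04). Pdia4 rose 5.90-fold, and the secreted factors Manf and Sdf2l1 rose 3.44-fold and 3.53-fold. Hspa5, the chaperone BiP, which holds the same motif, read 20045, 15401 and 18726 and 20416, 30140, 30903, 22682 and 22393 and was not called although the groups did not overlap (log2 0.47, adjusted p = 0.085). Of the 10 risen genes with a window 4 held the motif, Canx and Hsp90b1 beside the pair printed above, and the other 4 holders (Calr, Dnajc3, Hspa5 and Syvn1) were not called. Dnajc3 was called without tumor replicate 3 or naive replicate 4 (adjusted p = 0.039).

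Genes of glycolysis and of the response to low oxygen rose in 15 of 20 tested, and the other 5 were not called (median 1.52; 17 rises, median 1.57, in the reduced fit). Bnip3, a mitophagy receptor that the hypoxia factor HIF-1 induces, read 255, 275 and 387 in the naive and 4090, 5076, 8627, 4824 and 5914 in the tumor arrays. It rose 16.7-fold (log2 4.06, SE 0.36, adjusted p = 1.8e-06; 16.7-fold in the reduced fit). Tpi1, triosephosphate isomerase, read 2169, 2433 and 3194 and 17935, 18143, 32582, 19398 and 19662 and rose 8.09-fold (adjusted p = 7.1e-07). Pgam1, phosphoglycerate mutase, read 1703, 1376 and 2084 and 9654, 9676, 11881, 12379 and 12484 and rose 6.46-fold (adjusted p = 6.7e-07). In these 3 genes every tumor array was above every control. Vegfa, the vascular growth factor, rose from 6.4, 8.1 and 52, all near background, to 237, 189, 382, 304 and 408. Slc2a1, the glucose transporter GLUT1, read 1689, 621 and 797 and 2623, 6035, 1533, 2639 and 2519 and rose 2.87-fold (adjusted p = 0.0059). Pfkl, a phosphofructokinase, rose 4.70-fold by its brightest probe set and changed by -0.95 on the log2 scale by another. Hif1a itself, outside the naming rule and chosen after its value was seen, was not called (log2 -0.02). Slc2a1 was not called without naive replicate 5 (adjusted p = 0.05).

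Oxidative phosphorylation showed another pattern. Of 27 tested genes 7 rose and the rest were not called (median 0.67), but in the reduced fit 4 rose and the median was 0.18. Tumor replicate 3 was the highest tumor array in 25 of the 27, against 26.2% of all genes. Cycs, cytochrome c, read 11180, 3432 and 4351 in the naive and 11928, 29311, 33103, 12023 and 15378 in the tumor arrays and rose 3.34-fold (adjusted p = 0.0034), although naive replicate 4 was close to the lowest tumor array. The tumor values were again highest in replicate 3. Ribosome biogenesis genes rose in 10 of 21 (median 0.89; 11 rises, median 0.82, in the reduced fit), with Nop58 up 3.33-fold, Nolc1 2.97-fold and Gnl3 2.78-fold. Wdr12 rose 4.53-fold by one probe set and changed by -0.18 by another. Of 11 heat shock chaperones 5 rose, among them the mitochondrial proteins Hspe1, Hspd1 and Hspa9, up 3.64-fold, 3.27-fold and 3.14-fold (median 0.80; 7 rises, median 0.78, in the reduced fit). Cholesterol synthesis had 5 rises and 1 fall among 17 (median 0.26; 2 and 1, median 0.03, in the reduced fit), Cyp51 rising 2.01-fold and Dhcr7 falling 2.36-fold. The 7 rises of oxidative phosphorylation became 3 without naive replicate 5 or 6. The 5 rises of heat shock became 3 without naive replicate 5. The 5 rises of cholesterol synthesis became 3 without tumor replicate 1 or naive replicate 5 and 2 without naive replicate 6. The 10 rises of ribosome biogenesis became 6 without naive replicate 5.

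Cell cycle genes rose in both phases examined. Of 25 genes of DNA replication 16 rose (median 1.00; 18, median 1.07, in the reduced fit), and of 25 genes of mitosis 23 rose (median 1.48; 17, median 1.21, in the reduced fit). Ccne2, a cyclin of entry into S phase, read 227, 151 and 198 in the naive and 1043, 1029, 1635, 1062 and 1098 in the tumor arrays and rose 5.35-fold (log2 2.42, SE 0.31, adjusted p = 3.3e-05). Cdc6, a licensing factor of replication origins, read 321, 520 and 526 and 2024, 1394, 2164, 1935 and 1532 and rose 3.80-fold (adjusted p = 5.0e-05). Tpx2, a spindle assembly factor, read 470, 370 and 277 and 2418, 2404, 2223, 2223 and 2277 and rose 5.90-fold (adjusted p = 2.1e-06; 5.25-fold in the reduced fit). Cdk1, the mitotic kinase, read 1026, 672 and 534 and 2148, 2644, 7678, 2907 and 2128 and rose 4.13-fold, or 2.86-fold in the reduced fit. Mki67, the Ki-67 proliferation antigen, was bright in both groups (8427, 7063 and 3414 and 10734, 12630, 3532, 6536 and 8558) and was not called (log2 0.38, adjusted p = 0.46). The naive samples already held mitotic transcripts, and naive replicate 4 was the highest control for Tpx2, Cdk1 and Mki67. The 23 rises of mitosis became 14 without naive replicate 6. With naive replicates 1 to 3 as controls all 25 rose (median 3.58).

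Cyclins and their inhibitors included some of the larger changes. Of 11 tested genes 5 rose and 2 fell (median 0.49; 5 and 1, median 0.62, in the reduced fit). Cdkn1a, the p21 inhibitor that p53 and other signals induce, read 283, 268 and 662 in the naive and 7495, 5802, 8101, 9024 and 6224 in the tumor arrays and rose 18.0-fold (log2 4.17, SE 0.28, adjusted p = 2.4e-07; 23.0-fold in the reduced fit). Ccnd1, cyclin D1, which lymphocytes hardly use, read 200, 269 and 669 and 5430, 2920, 2189, 5908 and 6466 and rose 11.6-fold (adjusted p = 3.8e-05). Cdkn1a was similar in all tumor arrays, while Ccnd1 was lowest in replicates 2 and 3. Cdk4 rose 2.51-fold, and Cdkn1b, the p27 inhibitor, and Rbl2, the p130 pocket protein, fell 1.91-fold and 2.69-fold. Ccnd3 rose 2.12-fold by its brightest probe set, but 2 others were lower in the tumor arrays, 1 of them with a log2 change of -3.12, so no direction is drawn for it. The list of p53 targets, which holds Cdkn1a and Pmaip1, had 4 rises and 6 falls among 17 tested (median -0.22; 6 and 6, median -0.10, in the reduced fit). Sesn1 fell 7.61-fold, from 13419, 12090 and 8440 to 1972, 1812, 649, 1542 and 1666. Myc, a driver of growth, read 1307, 739 and 1063 and 2254, 2648, 608, 2404 and 3451, was not called with all arrays (log2 0.95, adjusted p = 0.095) and rose in the reduced fit (log2 1.40, adjusted p = 9.2e-04). The 4 rises of p53 targets became 2 without tumor replicate 1, 4 or 5 or naive replicate 4 or 5. The 6 falls of p53 targets became 2 without naive replicate 4 or 5 and 3 without naive replicate 6. Myc was called without tumor replicate 3 (log2 1.37, adjusted p = 2.5e-04). Cdkn1b was not called without tumor replicate 4 or 5 or naive replicate 4, 5 or 6 (adjusted p = 0.057 to 0.17). Pmaip1 was not called without tumor replicate 1, 4 or 5 or naive replicate 4 or 5 (adjusted p = 0.059 to 0.22). Rbl2 was not called without naive replicate 5 or 6 (adjusted p = 0.072 to 0.078).

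IL-2 signalling genes outside Socs2 and Il2ra gave 2 further rises, Osm and Pim2. Osm, the cytokine oncostatin M that STAT5 induces, read 603, 610 and 549 in the naive and 2524, 2592, 4217, 2523 and 3809 in the tumor arrays and rose 4.99-fold (adjusted p = 1.3e-05). Pim2, a survival kinase, read 496, 574 and 712 and 2572, 1905, 1664, 3071 and 3945 and rose 4.10-fold (adjusted p = 1.0e-04). Both were above every control in all tumor arrays. Within the tumor group Osm was highest and Pim2 lowest in replicate 3, where T cell signal was lowest. The source of either transcript was not tested. Jak1, a kinase of cytokine receptors, fell 3.12-fold. The list of 18 had 3 rises and 1 fall (median 0.02; 5 and 2, median 0.49, in the reduced fit). Over all genes 16.2% rose and 15.5% fell, so the number of rises in the list is near the share over all genes. In the BCL-2 family, which sets the threshold for cell death, Bid, Pmaip1 and Bcl2l1 rose 2.17-fold, 2.19-fold and 1.81-fold and Bmf fell 2.41-fold (adjusted p = 0.049; 0.11 in the reduced fit), while the other 8 of 12 were not called. Bcl2l1 was not called without naive replicate 4 or 5 (adjusted p = 0.069 to 0.074). Bmf was not called without tumor replicate 1, 3, 4 or 5 or naive replicate 4, 5 or 6 (adjusted p = 0.07 to 0.21). Jak1 was not called without naive replicate 4, 5 or 6 (adjusted p = 0.052 to 0.063).

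Arginine transport and breakdown changed sharply. Of 12 tested genes of arginine and polyamine metabolism 6 rose and 1 fell (median 0.46; also 6 and 1, median 0.37, in the reduced fit). Arg1, arginase, read 5.4, 15 and 4884 in the naive arrays and 25561, 28680, 39354, 27495 and 28356 in the tumor arrays (log2 7.17, adjusted p = 1.1e-04; 9.36 in the reduced fit), so naive replicate 6 alone among the controls carried it. Slc7a2, an arginine transporter of macrophages and mast cells, read 52, 33 and 1244 and 7207, 4042, 12565, 16832 and 14026 (log2 5.67, adjusted p = 4.4e-05; 6.95 in the reduced fit), with the same step in naive replicate 6. Slc7a1, the transporter that most cells use, read 2244, 3071 and 3226 and 12390, 12088, 3471, 12619 and 12145 and rose 3.37-fold, or 4.64-fold in the reduced fit. In tumor replicate 3 Slc7a1 was close to the controls, unlike Arg1 and Slc7a2. Srm, spermidine synthase, read 1472, 848 and 1146 and 3979, 6908, 2927, 4107 and 5693 and rose 3.93-fold (adjusted p = 8.6e-05), and Odc1, ornithine decarboxylase, rose 2.00-fold. Ass1, which rebuilds arginine, read 475, 350 and 267 and 136, 311, 8.6, 99 and 93 and fell 2.96-fold (adjusted p = 0.024). Arg1 changed by 5.94 without naive replicate 4 and by 6.11 without naive replicate 5 and by 9.46 without naive replicate 6. Odc1 was not called without naive replicate 4 (adjusted p = 0.07). Ass1 was not called without naive replicate 4 or 5 (adjusted p = 0.071 to 0.098). Slc7a2 changed by 5.08 without naive replicate 4 and by 4.89 without naive replicate 5 and by 7.04 without naive replicate 6.

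Interferon-stimulated genes rose in 8 of 27 and 1, Ifit2, fell (median 0.48; 6 and 1, median 0.38, in the reduced fit). Against naive replicates 1 to 3 the list had 7 rises and 5 falls (median -0.20). Oas2, an antiviral synthetase, read 123, 156 and 153 in the naive and 417, 519, 405, 538 and 679 in the tumor arrays and rose 3.05-fold (adjusted p = 3.1e-04). Bst2, the restriction factor tetherin, read 15, 120 and 150 and 303, 290, 2371, 271 and 349, its rise being largest in tumor replicate 3. Ifit2 fell 2.08-fold, from 1502, 1896 and 2020 to 933, 881, 884, 836 and 703, and the groups did not overlap. Of 11 genes of MHC class I and peptide loading only Pdia3, which the unfolded protein response list also holds, was called (median 0.01). With naive replicates 1 to 3 as controls 2 of the 11 rose and 6 fell (median -0.79). Of 8 tested MHC class II genes 1 rose and 2 fell (median 0.40; 2 and 2, median 0.06, in the reduced fit). H2-Ab1, a chain of the class II molecule, rose, with 647, 449 and 876 and 1034, 1788, 8231, 1583 and 1797. H2-Ob and H2-Oa, which form a complex that holds back peptide loading in B cells, fell, H2-Ob 8.03-fold from 2142, 2355 and 3004 to 436, 535, 84, 267 and 291 and H2-Oa 2.72-fold. Bst2 was not called without naive replicate 4 (adjusted p = 0.083). H2-Ab1 was not called without naive replicate 4 or 5 (adjusted p = 0.068 to 0.12). Pdia3 was not called without naive replicate 4 (adjusted p = 0.058).

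The largest rises were mostly of genes known from other cell types. The 10 largest rises without overlap were Arg1, Cpa3, Mcpt8, Trap1a, Tph1, Rhox5, Rnase2a, Ctsg, Saa3 and Ifitm1. Most are known from mast cells and basophils (Cpa3, Mcpt8, Tph1, Ctsg), from P815 (Trap1a, Rhox5) or from macrophages (Arg1, Saa3). In the reduced fit their log2 changes ran from 7.15 (Ctsg) to 9.36 (Arg1). Of 15 tested mast cell and basophil genes 11 rose, of 25 macrophage genes 20 and of 14 genes of resident peritoneal macrophages 13, and the others were not called. The summed resident macrophage signal was 2830 to 13127 in the naive and 59674 to 92785 in the tumor arrays. Gata6, the factor that sets the identity of resident peritoneal macrophages, read 55, 5.2 and 70 in the naive and 451, 234, 226, 695 and 834 in the tumor arrays and was chosen after its values were seen. Fn1, fibronectin, read 75, 7.4 and 1633 and 12524, 8824, 8180, 15535 and 17580. Timd4, a receptor for dying cells, read 23, 28 and 43 and 368, 313, 2900, 427 and 419 and was also chosen after its values were seen. Gata6 and Fn1 were lowest in tumor replicate 3 and Timd4 was highest there, so the macrophage genes did not share 1 order over the tumor arrays. Rnase2a, of eosinophils, read 13, 19 and 755 and 7268, 5224, 25678, 13370 and 16157 and was the sole gene of its list of 12 to be tested. Ctsg changed by 5.64 without naive replicate 5 and by 7.43 without naive replicate 6.

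Genes that rose while tumor replicate 3 was lowest of its group were led, by the reduced fit, by Fn1, Aqp9, Csf2rb, Lrg1, Kit, Gata2, F5 and Ptger3. Kit, the stem cell factor receptor of mast cells, read 51, 22 and 393 in the naive and 4792, 2203, 1910, 6410 and 7924 in the tumor arrays. Gata2, a transcription factor of mast cells and progenitors, read 108, 152 and 1264 and 6589, 7353, 5023, 9493 and 8703. The rule chose these genes by their value in tumor replicate 3. The granule genes Mcpt8 and Ctsg read 6023, 7192, 20927, 7038 and 8612 and 7376, 14342, 26074, 8083 and 11214 in the tumor arrays, and the P815 genes Trap1a and Rhox5 read 11580, 7561, 32701, 14792 and 13268 and 12738, 9987, 28513, 14422 and 15753. Csf1r, the receptor of macrophage growth factor, read 309, 137 and 1157 and 7157, 7539, 6410, 8870 and 11700, with replicate 3 below every other tumor array.

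B cell genes were lower, 11 of 15 falling and the other 4 not being called (median -1.82; 7 falls, median -1.48, in the reduced fit). Against naive replicates 1 to 3 the drop was smaller, with 5 of these genes falling and 1 rising (median -0.47). Their summed signal was 14397 to 30045 in the naive arrays from spleen and 1933 to 9877 in the tumor arrays. Igha, the IgA constant region, read 1166, 2693 and 8740 and 92, 265, 165, 129 and 127, and Jchain, the joining chain of secreted antibody, read 952, 256 and 1445 and 37, 55, 60, 14 and 22. Ighm, the IgM constant region, fell 6.09-fold by its brightest probe set (21343, 8427 and 9981 and 3436, 7007, 327, 1493 and 2368), while another that averaged under 100 in both groups changed by 0.02. Of 7 tested markers of CD8 T and NK cells Klrd1, a lectin-like receptor, rose and Crtam, an adhesion molecule, Eomes, a T-box factor, and Cd8b1, a CD8 chain, fell (176, 232 and 172 and 34, 27, 71, 24 and 23 for Crtam), while in the reduced fit 2 fell and Klrd1 was not called (adjusted p = 0.065). Cd8a, the partner chain, read 82, 68 and 97 and 105, 66, 313, 45 and 92 and was not called (log2 0.24), and its other 2 probe sets changed by -0.45 and -0.95. Among 9 tested neutrophil genes Prtn3 and Cxcr2 rose and the others were not called (median -0.71). Pf4, a platelet and macrophage chemokine, was the largest of 3 rises among 5 erythroid and platelet genes (the others were Itga2b, a platelet integrin chain, and Epor, the erythropoietin receptor), and Car2, a carbonic anhydrase, fell. Of 7 dendritic cell genes 2 rose, Clec10a and Batf3. Of 4 sex-linked genes 2, Eif2s3y and Kdm5d, fell (log2 -1.26 and -1.49). The 11 falls of the list became 7 without naive replicate 6. Batf3 was not called without tumor replicate 2, 3, 4 or 5 or naive replicate 5 or 6 (adjusted p = 0.052 to 0.25). Car2 was not called without tumor replicate 1, 4 or 5 or naive replicate 5 or 6 (adjusted p = 0.069 to 0.22). Cd8b1 was not called without tumor replicate 4 or naive replicate 4 or 5 (adjusted p = 0.055 to 0.099). Epor was not called without tumor replicate 4 or 5 or naive replicate 5 or 6 (adjusted p = 0.052 to 0.16). Ighm changed by -1.99 without tumor replicate 3. Itga2b was not called without naive replicate 6 (adjusted p = 0.055). Kdm5d was not called without naive replicate 5 (adjusted p = 0.051). Klrd1 was not called without naive replicate 5 or 6 (adjusted p = 0.052 to 0.19).

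The largest falls without overlap were Nsg2, Dtx1, St8sia1, Cd83, Ntn4, Igha, Plagl1, Lrig1, St8sia6 and Evl. Dtx1, the Notch target Deltex, read 13092, 13454 and 11629 in the naive and 1118, 960, 58, 546 and 522 in the tumor arrays and fell 25.2-fold (log2 -4.66, SE 0.56, adjusted p = 2.2e-05; 17.1-fold in the reduced fit). Nsg2, an endosomal protein of neurons and lymphocytes, read 1920, 3508 and 4338 and 115, 121, 36, 120 and 68 and fell 26.3-fold (adjusted p = 2.5e-07). St8sia1 and St8sia6, which attach sialic acids, read 745, 1848 and 1143 against 28, 21, 3.2, 28 and 20 and 5142, 6991 and 5609 against 656, 775, 94, 385 and 504. Each fell further than the T cell list's median in both fits. With all arrays that follows from their choice as the largest falls, so it says nothing further about them. Plagl1, a zinc finger protein, and Lrig1, a negative regulator of growth factor receptors, fell 14.7-fold and 14.3-fold, with tumor replicate 3 lowest for both. Ntn4, a secreted netrin, read 990, 1498 and 1774 and 39, 52, 13, 43 and 34, below 100 in all tumor arrays. Dtx1 changed by -4.03 without tumor replicate 3.

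The change was also set against that of the GVHD arrays relative to naive replicates 1 to 3. The difference of the 2 changes was called in 1316 genes, 10.8% of those tested, and in 2077 in the reduced fit. The GVHD arrays had been deposited at a trimmed mean of 1499 and the others at 500, which the rescaling evened out. Gzmb changed by 3.04 here and by 7.03 in GVHD, a difference of -4.00 (adjusted p = 8.0e-04). Mki67 changed by 0.38 and 5.14 (difference -4.76, adjusted p = 6.0e-05). The 2 changes have different controls. Of 25 mitosis genes 23 rose in tumor against naive replicates 4 to 6 (median 1.48) and 25 against naive replicates 1 to 3 (median 3.58). In GVHD 25 rose against naive replicates 1 to 3 (median 4.96). The part of the controls in the Mki67 difference was not tested. Cd83 changed by -4.52 and -6.18 (difference 1.66, adjusted p = 0.023). Myc changed by 0.95 and -1.88 (difference 2.83, adjusted p = 0.008) and Odc1 by 1.00 and -0.40 (difference 1.40, adjusted p = 0.035). For Klf2, Ccr7, Ctla4, Ikzf2, Gata3 and Slc2a1 the difference was not called.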

How the data were processed

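Gene expression was measured on Affymetrix 3' expression arrays of 14 samples, 8 of which enter the comparison (5 tumor, 3 naive). The values used are the MAS5 signal intensities that the authors deposited, 1 per probe set and sample, with MAS5 named per the labels; the sources used here do not name the annotation release. The trimmed mean of every array (2% left out at each end) was set to 500 and 32 was added before log2. Of 45101 probe sets, 34945 have 1 gene symbol, 932 have several and 9160 that are not controls are unnamed in the platform annotation. Of those with 1 symbol, 22151 read at least 100 in at least 3 arrays, and the brightest per gene gave 12218 genes. Below 100 a signal was taken as near background, and the number of arrays limits the precision.

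Genes were tested with limma 3.58.1 (R 4.3.3; lmFit, and eBayes with a trend), over all 14 arrays in 4 groups, which share 1 estimate of the spread; adjusted p is Benjamini-Hochberg over all genes tested. The fit was tested on simulated data with independent errors and 1 spread per gene in all groups. These data held no outlying array such as tumor replicate 3, so they do not cover that case. Whether samples came from separate animals is not stated, so p-values measure the spread between samples, which may be technical. The gene lists and the members were chosen with earlier results of these data known. Genes are named by rule: the 10 largest rises and falls without overlap, up to 5 called members per list and direction (and uncalled ones of lists of 12 or fewer), 40 genes of known role, and the 8 largest rises with tumor replicate 3 highest or lowest. Outside that rule, chosen after their values were seen, are Atf4, Calr, Canx, Chac1, Ddit3, Dnajc3, Egr1, Fos, Gata6, Hif1a, Hsp90b1, Ikzf4, Irf4, Jun, Mthfd2, Penk, Phgdh, Sesn2, Shmt2, Slc3a2, Slc7a11, Syvn1 and Timd4. The alternatives tried were leaving out arrays, the added constant, the low-signal filter, quantile normalization, the 8 arrays alone, array weights, the mean of probe sets, other controls and a replicate block.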

Additional observations from a re-analysis of the deposited data

Results flagged for a closer look

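Within the 5 tumor arrays, 1 array lay far from the others for some lists and genes. Chance alone sets an array apart in about 1 in 20 groups.

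Tumor replicate 3 was set apart on the low side in the mean log2 signal of these lists: effector and tissue Treg (8.81), IL-2 and STAT5 signalling (9.63), D cyclins and CDK inhibitors (10.81), BCL-2 family (9.15) and stroma and mesothelium (6.11). It was also far below the other tumor arrays on that log2 scale in Bcl2l1 (1295), Ccr6 (137), Cd3e (40), Cd4 (22), Dtx1 (58), Ikzf2 (896), Il6ra (48), Jak1 (274), Klf2 (440), Lrig1 (10), Myc (608), Rbl2 (266), Sesn1 (649), Slc7a1 (3471), Slc7a5 (2614), Syvn1 (214) and Tbx21 (66). It was far above the other tumor arrays in Arg1 (39354), Asns (10478), Atf4 (8633), Bst2 (2371), Ccne2 (1635), Cdk1 (7678), Crtam (71), H2-Ab1 (8231), Manf (15483), Mcpt8 (20927), Timd4 (2900), Tph1 (28114) and Tpi1 (32582). Tumor replicate 2 was far above the other tumor arrays in Cd83 (201) and Phgdh (21267).

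The change with tumor differed from the change with GVHD, by the test of the difference in limma, for some of the 40 genes of known role. The tumor change was the higher on the log2 scale for Nt5e (2.92, adjusted p = 0.0084), Trap1a (6.86, adjusted p = 0.0024), Rhox5 (6.58, adjusted p = 0.0032), Arg1 (6.67, adjusted p = 0.011), Cpa3 (7.37, adjusted p = 3.1e-04), Kit (5.14, adjusted p = 0.0015), Csf1r (4.17, adjusted p = 0.0021), Cd83 (1.66, adjusted p = 0.023), Myc (2.83, adjusted p = 0.008) and Odc1 (1.40, adjusted p = 0.035). It was the lower for Gzmb (-4.00, adjusted p = 8.0e-04), Gzma (-4.89, adjusted p = 7.5e-04), Mki67 (-4.76, adjusted p = 6.0e-05), Prdm1 (-3.18, adjusted p = 0.023), Tbx21 (-3.15, adjusted p = 0.022), Icos (-2.64, adjusted p = 0.045), Havcr2 (-2.65, adjusted p = 9.1e-04), Ccr2 (-2.77, adjusted p = 0.01) and Ccr8 (-1.49, adjusted p = 0.041).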

How the results depend on the processing

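Rises numbered 1344 to 2289, falls 1018 to 2209 and genes differing from the GVHD change 824 to 2171 when 1 array was left out; the fewest rises, falls and differences came without naive replicate 5, and the most differences without tumor replicate 3. With both tumor replicate 3 and naive replicate 6 left out 2077 genes differed from the GVHD change. Falls numbered 1200 with the 8 arrays alone and 3074 with naive replicates 1 to 3 as controls. Array weights gave 3530 rises, 3597 falls and 3889 differences. Tumor and naive arrays share the replicate numbers 4 and 5 alone, and the deviations of those arrays correlated at -0.50 and 0.06. Arrays of unlike number gave -0.42 to 0.42. With so few pairs these values cannot decide whether the number pairs the arrays. With the replicate block 1005 genes rose, 450 fell and 832 differed. The cause of these shifts was not tested.

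Of 3762 values of 198 named genes under the alternatives, 3461 kept their side of the threshold, 225 lost the call and 71 gained one. The other 5 reversed, which means a change of sign with a call in at least 1 of the fits compared. The 5 were Jun in the reduced fit (0.80), Ccnd3 by the mean of its probe sets (-0.75) and, against naive replicates 1 to 3, Prdm1 (1.43), Atf4 (-0.33) and Ddit3 (-1.27). Changes of sign without a call are among the 3461, such as Il2ra at 0.03 with all arrays and -0.32 without tumor replicate 1. Of 722 list medians 65 moved by more than the spread between arrays. Signals under 100, such as those of Foxp3, bound what could be measured.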
